A study of Mus musculus with 31 samples.

Results

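Gene expression in whole wild-type mouse testes was compared between 16 and 14 days post coitum (dpc). The members were the arrays whose labels name wild-type testis at these ages, 3 at 16 dpc and 3 at 14 dpc, which is 6 of the 31 arrays of the series. The series profiled fetal mouse ovaries and testes at 12, 14 and 16 dpc. The embryos were wild type or carried 2 copies of Wv (Wv/Wv), a mutation of the Kit receptor that leaves fetal gonads with few germ cells. Besides the 6 arrays, the comparisons below used Wv/Wv testes at 16 dpc (3 arrays) and 14 dpc (2 arrays), wild-type ovaries at 16 and 14 dpc (3 arrays each), and, as levels only, testes at 12 dpc (1 wild-type array and 3 Wv/Wv arrays). The Wv/Wv animals carry the mutation in every cell, so their somatic and blood cells lack normal Kit signalling too. No other allele or treatment is given in the labels, and the strain and any pooling of gonads are not given there. Replicates are labelled as biological, but the labels do not say which animals or litters they came from, and the p-values describe only how these samples vary.

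Male germ cells of the mouse stop dividing in the fetal testis and become prospermatogonia, which rest in a quiescent state until after birth. While they enter this state they shut down the pluripotency network that primordial germ cells share with embryonic stem cells. They also switch on the machinery that silences transposons, in which a cytoplasmic and nuclear PIWI pathway uses small RNAs to direct new DNA methylation. Around them Sertoli cells enclose the germ cells in cords, and fetal Leydig cells in the interstitium make androgens from cholesterol.

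All values are RMA signals on the log2 scale, and changes are log2 differences, 16 minus 14 dpc. A call required a limma p below 0.05 after Benjamini-Hochberg adjustment over 18194 genes. Array 1 of the 16 dpc group stood apart. The SD of its signals over all probe sets was 1.77, against 2.35 to 2.38 on the other 5 arrays. Its signals correlated with those of arrays 2 and 3 at 0.875 and 0.873, whereas arrays 2 and 3 correlated at 0.9945 and the 14 dpc arrays among themselves at 0.9944 to 0.9952. The difference between the 3′ and 5′ probe sets of Gapdh was 1.12 on array 1 and 1.95 to 2.17 on the other 5 arrays, while that of Actb on array 1 lay within the 1.37 to 1.97 of the others. Counts, list medians and the changes of the main genes are therefore given with and without this array. Among the samples set beside the testes, Wv/Wv testis array 1 at 16 dpc and array 2 at 14 dpc also had narrow signals (SD 2.16 and 2.14), as did all 3 wild-type ovary arrays at 16 dpc (2.06 to 2.18) and ovary array 1 at 14 dpc (2.18). Wild-type ovary array 2 at 16 dpc was nearer the 14 dpc ovaries in Sox2, with a signal of 7.76 against 3.56 on both other 16 dpc ovary arrays and 7.95 to 9.53 at 14 dpc. Over all genes it correlated with those 16 dpc arrays at 0.981, and its likeness to the 14 dpc arrays was not measured. The tissue labels held for the testes: Cyp17a1, an enzyme of androgen synthesis, had signals of 12.72 to 13.95 on the 6 arrays.

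The largest falls among called genes at 16 dpc were of pluripotency genes (Dppa5a, Sox2, Prdm14, L1td1) and of the globin gene Hbb-y, which lost its call without array 1. The largest rises were of genes of the piRNA and DNA methylation machinery (Piwil4, Tdrd9, Dnmt3l) and of the export factor Nxf2. Elastin and the CDK inhibitor Cdkn2c rose less, and the steroid enzyme Hsd17b1 rose without array 1. Most genes of steroid synthesis, cell division and Sertoli identity were not called. With all arrays 67 genes were higher at 16 dpc, which is 0.368% of those tested, and 84 were lower, which is 0.462%. Without array 1 the counts were 100 higher (0.55%) and 56 lower (0.308%), and 98 genes were called both ways, each with the same sign. The 5 remaining arrays fitted alone, an alternative chosen after the data were seen, called 453 genes higher (2.49%) and 396 lower (2.18%), and 94 genes (46 higher, 48 lower) were called in all 3 fits. Leaving out another array gave 265 calls without 16 dpc array 2 and 267 without array 3, and 71, 81 and 69 without 14 dpc arrays 1, 2 and 3. Centring the arrays on housekeeping genes changed the split to 133 higher and 14 lower and moved the median change of all genes to 0.60, against -0.10 as deposited. Without array 1 that centring gave 40 higher and 33 lower with a median of -0.03, against -0.01 as deposited.

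**Figure D1:**
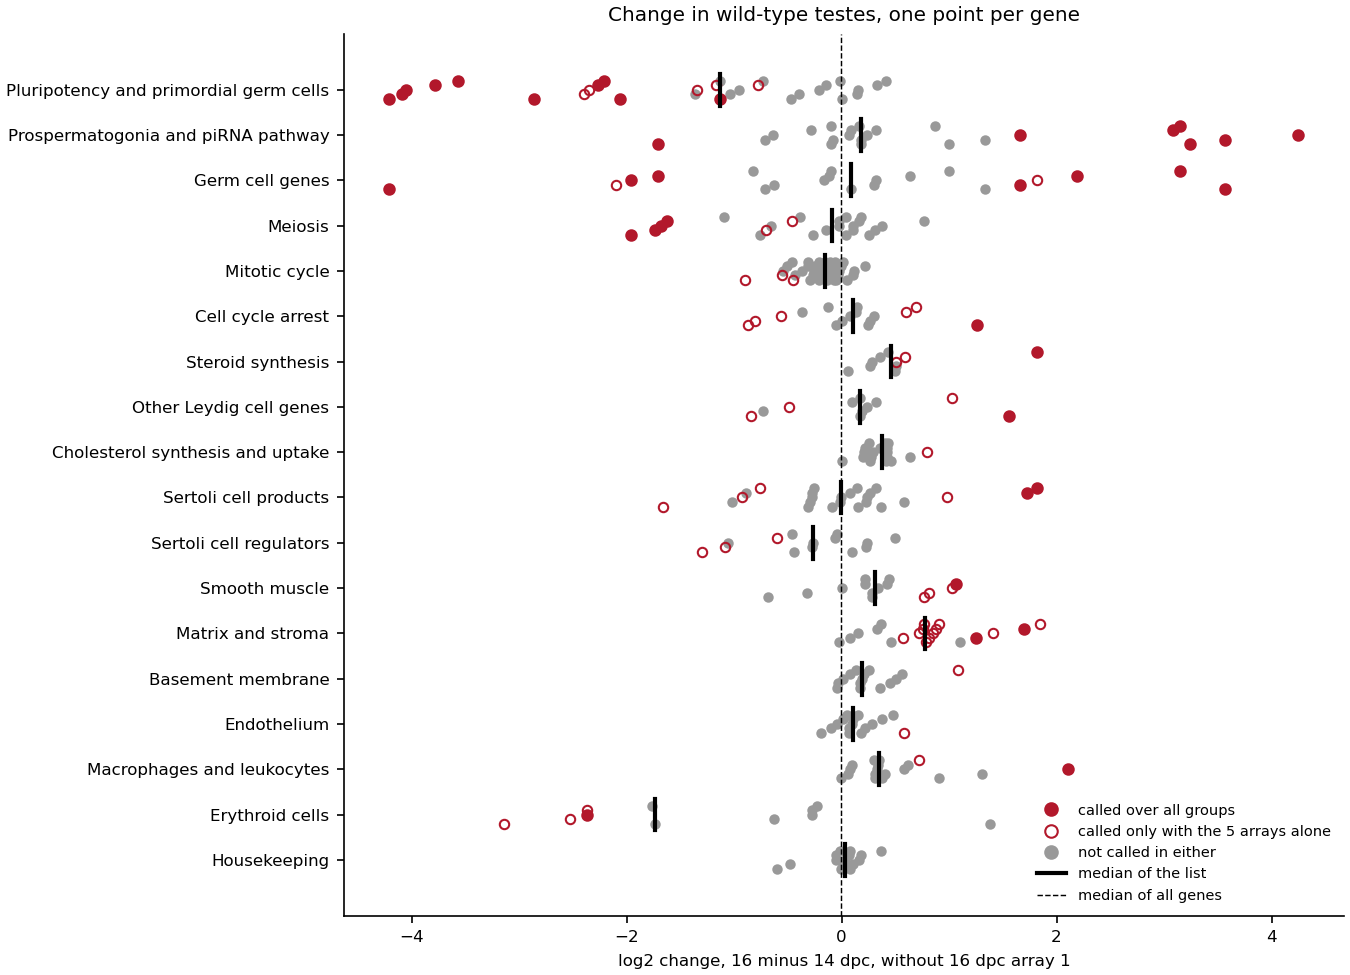
Log2 change, 16 minus 14 dpc, of the measured members of gene lists in wild-type testes, computed without array 1 of the 16 dpc group. Points are genes, filled red where called over all groups and open where called only with the 5 arrays alone, bars mark list medians and the dashed line marks the median of all genes. The pluripotency list lies lowest among the germ cell lists with a median of -1.13.

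Pluripotency genes fell at 16 dpc. Of the 30 measured genes of pluripotency and primordial germ cells, 13 fell and 0 rose with all arrays, with a median change of -1.42. Without array 1 the counts were 10 and 0, with a median of -1.13, and with the 5 arrays alone they were 15 and 0. Medians of all 18194 genes lay at -0.10 and -0.01. In a whole testis, fewer cells of a type and less RNA per cell cannot be told apart. The summed linear signal of the core germ cell list was 4521, 18878 and 8261 on the 16 dpc arrays 1, 2 and 3, against 13376, 15733 and 18013 on the 14 dpc arrays, so array 2 lay above all 14 dpc arrays and arrays 1 and 3 below them. This sum includes Dppa5a, Tdrd9, Gtsf1 and other genes named below. The part of germ cell content in the germ cell results was not tested.

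Dppa5a, an RNA-binding protein of pluripotent cells, had signals of 6.54, 8.51 and 7.27 at 16 dpc and 12.08, 11.96 and 12.25 at 14 dpc. It fell by 4.66 ± 0.65 (SE, 3 arrays at each age, adjusted p = 1.97e-04) and by 4.21 without array 1 (adjusted p = 0.00207). The pluripotency factor Sox2 had signals of 3.08, 4.56 and 3.82 at 16 dpc and 8.14, 7.79 and 8.79 at 14 dpc. The groups of both genes do not overlap, and array 2 was the highest 16 dpc array in each. Sox2 was not above the low-signal limit on any 16 dpc array, so its fall is given as at least 5.80-fold (adjusted p = 0.00182, and 0.0129 without array 1). That limit, 5.705, is the 40th percentile of signals. For a bound of this kind every signal under the limit, in either group, was set to the limit before the means were compared. Where an array of the brighter group lay under the limit too, the value is not a strict lower bound. It is then given as a fold with signals under the limit set to it.

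Prdm14, a repressor that keeps primordial germ cells in their state, was at 3.62, 3.31 and 3.30 at 16 dpc and 7.28, 7.54 and 7.36 at 14 dpc. Its signals were tight within each age, and it was at least 3.23-fold lower at 16 dpc (adjusted p = 4.65e-06). L1td1, an RNA-binding protein derived from a LINE-1 element, was at 4.45, 5.02 and 5.11 at 16 dpc and 8.75, 8.82 and 8.96 at 14 dpc, at least 8.81-fold lower (adjusted p = 9.23e-07). Tcl1, a cofactor of the Akt kinase, was at 6.49, 5.88 and 5.47 at 16 dpc and 9.11, 9.38 and 9.26 at 14 dpc and fell by 3.30 ± 0.36 (adjusted p = 6.93e-06). Pmaip1, which encodes the pro-apoptotic BH3 protein Noxa, was at 4.72, 6.00 and 4.83 at 16 dpc and 8.56, 8.44 and 9.52 at 14 dpc and fell by 3.66 ± 0.34 (adjusted p = 9.23e-07), with arrays 1 and 3 at 16 dpc under the low-signal limit. All 4 genes were also called without array 1, with changes of -4.09 (Prdm14), -3.78 (L1td1), -3.57 (Tcl1) and -3.43 (Pmaip1).

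Members of the Nodal pathway, which acts in fetal male germ cells for a short time, were among the genes that fell. The ligand Nodal had signals of 6.21, 5.62 and 5.36 at 16 dpc, against 7.85, 7.65 and 7.79 at 14 dpc, and fell by 2.03 (adjusted p = 6.32e-06, and 1.47e-06 without array 1). Its inhibitors Lefty1 and Lefty2 fell by 1.65 (adjusted p = 0.0153) and 1.71 (adjusted p = 0.0207), and Lefty2 lost its call without array 1 (adjusted p = 0.123) while Lefty1 changed by -2.21 there (adjusted p = 7.39e-05). Mean Wv/Wv testis signals at 16 and 14 dpc were 7.54 and 6.77 for Lefty2, 5.98 and 5.98 for Lefty1, and 5.67 and 5.65 for Nodal. The Lefty2 signal was thus not confined to wild-type testes. The homeobox genes Otx2 and Lhx1 fell as well. Otx2 had signals of 4.35, 3.26 and 3.07 at 16 dpc and 6.07, 5.93 and 6.55 at 14 dpc (at least 1.39-fold, adjusted p = 1.36e-06), and Lhx1 had 5.34, 4.76 and 4.44 at 16 dpc and 7.36, 6.93 and 7.38 at 14 dpc (at least 2.87-fold, adjusted p = 5.59e-04). Lhx1 is also a gene of the mesonephros. Both were called without array 1 too (adjusted p = 1.07e-08 for Otx2 and 4.77e-04 for Lhx1). Nanog, the homeobox factor of pluripotent cells, had 3.92, 4.28 and 3.99 at 16 dpc and 6.48, 5.60 and 6.52 at 14 dpc. It was 1.45-fold lower with signals under the limit set to it (adjusted p = 5.5e-06, and 4e-05 without array 1). Not every pluripotency gene was called. Pou5f1, which encodes Oct4, had 6.94, 8.74 and 7.45 at 16 dpc and 9.31, 8.71 and 9.65 at 14 dpc, with overlapping groups and an adjusted p of 0.216. Tfap2c, a regulator of primordial germ cells, changed by -2.52 with an adjusted p of 0.0562 (0.184 without array 1). Dppa3, which protects maternal methylation, had 7.59, 8.48 and 7.36 at 16 dpc and 10.11, 10.06 and 10.77 at 14 dpc (adjusted p = 0.0252) and lost its call without array 1 (adjusted p = 0.091). Further large falls were of Olig1, a helix-loop-helix factor known from the nervous system, with 4.82, 4.73 and 4.40 at 16 dpc and 7.09, 7.30 and 7.62 at 14 dpc (at least 3.10-fold, adjusted p = 8e-05, and 2.7e-04 without array 1), and of Mtm1, a lipid phosphatase, with a change of -2.73 (adjusted p = 0.00248, and 0.0172 without array 1). The 3 Mtm1 probe sets changed by -2.11 to -0.22 without array 1. The splicing regulator Esrp1 fell by 2.89 (adjusted p = 0.0206) and lost its call without 5 of the 6 arrays left out in turn, array 1 among them (adjusted p = 0.119).

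**Figure D2:**
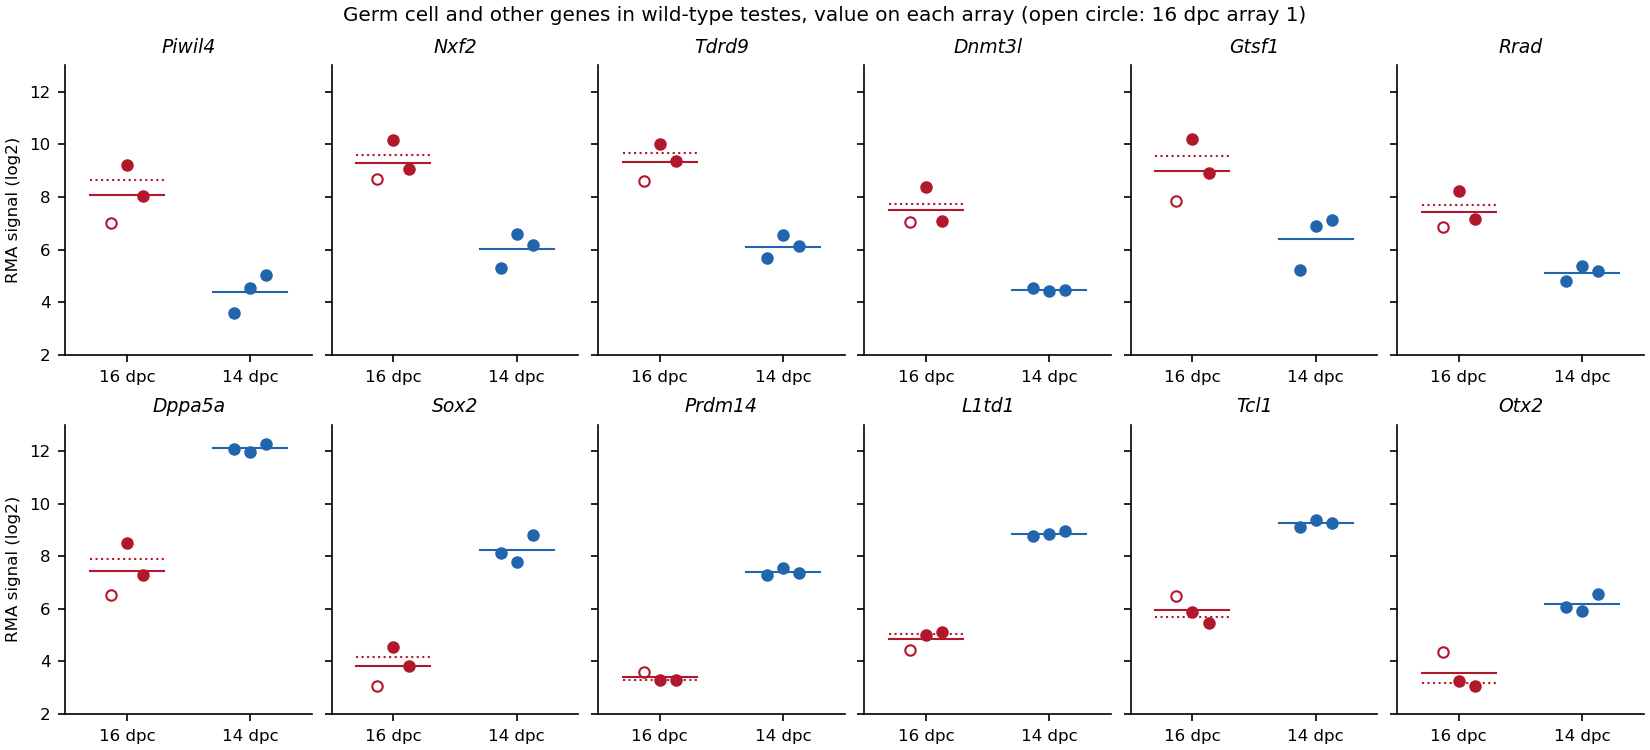
Log2 signal of germ cell genes on each wild-type testis array, with the 3 arrays at 16 dpc left of the 3 at 14 dpc with solid lines at the group means and dotted lines at the 16 dpc mean without array 1 (open circle). The called pluripotency genes such as Dppa5a and Sox2 separate downwards at 16 dpc and Piwil4, Nxf2, Tdrd9 and Dnmt3l separate upwards. The groups do not overlap, as in all genes called with all arrays and in 3799 of the 18194 genes tested.

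Of the 4 largest rises among called genes, Piwil4, Tdrd9 and Dnmt3l belong to the piRNA and DNA methylation machinery and Nxf2 to RNA export. Of 23 measured genes of the prospermatogonial and piRNA list, 4 rose and 1 fell with all arrays, 6 rose and 1 fell without array 1, and 5 rose and 1 fell with the 5 arrays alone, with medians of 0.42 and 0.18 with and without array 1. The core germ cell list had 3 that rose and 3 that fell of 21 (4 and 3 without array 1). The promoters of 4 genes that rose and 2 that fell are shown because these genes moved with age and their changes were among the largest of this comparison. They come from the RefSeq annotation of GRCm38.p6 and run from 250 bases before to 50 bases after the 5′-most listed start, on the gene's own strand. Capitals mark the E-box CACGTG and the GC box GGGCGG on either strand, which were chosen for display after the data were seen.
Piwil4 (chr9:14740623-14740922, minus strand): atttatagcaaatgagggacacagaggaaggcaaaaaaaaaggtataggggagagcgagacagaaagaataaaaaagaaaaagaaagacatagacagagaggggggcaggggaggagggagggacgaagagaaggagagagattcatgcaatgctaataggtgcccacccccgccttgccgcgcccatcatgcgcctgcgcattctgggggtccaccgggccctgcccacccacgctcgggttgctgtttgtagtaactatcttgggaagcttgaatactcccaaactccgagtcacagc
Nxf2 (chrX:134964705-134965004, minus strand): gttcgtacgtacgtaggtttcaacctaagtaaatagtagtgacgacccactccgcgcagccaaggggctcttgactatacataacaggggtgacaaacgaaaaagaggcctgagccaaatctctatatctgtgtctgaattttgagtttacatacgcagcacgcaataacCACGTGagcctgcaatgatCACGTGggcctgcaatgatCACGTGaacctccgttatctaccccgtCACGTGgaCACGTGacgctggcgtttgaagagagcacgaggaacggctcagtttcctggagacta
Tdrd9 (chr12:111971309-111971608, plus strand): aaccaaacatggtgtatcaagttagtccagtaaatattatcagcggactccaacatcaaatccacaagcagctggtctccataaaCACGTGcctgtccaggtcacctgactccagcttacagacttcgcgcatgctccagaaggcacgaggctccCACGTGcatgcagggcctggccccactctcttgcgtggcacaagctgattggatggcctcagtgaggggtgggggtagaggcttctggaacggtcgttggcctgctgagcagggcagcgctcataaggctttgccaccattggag
Dnmt3l (chr10:78042037-78042336, plus strand): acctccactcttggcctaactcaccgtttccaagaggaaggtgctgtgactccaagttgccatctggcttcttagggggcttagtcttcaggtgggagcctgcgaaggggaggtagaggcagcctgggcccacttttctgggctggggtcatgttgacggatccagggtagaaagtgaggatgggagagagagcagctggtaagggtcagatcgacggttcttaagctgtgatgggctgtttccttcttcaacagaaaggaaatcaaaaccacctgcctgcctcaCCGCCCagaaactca
L1td1 (chr4:98726504-98726803, plus strand): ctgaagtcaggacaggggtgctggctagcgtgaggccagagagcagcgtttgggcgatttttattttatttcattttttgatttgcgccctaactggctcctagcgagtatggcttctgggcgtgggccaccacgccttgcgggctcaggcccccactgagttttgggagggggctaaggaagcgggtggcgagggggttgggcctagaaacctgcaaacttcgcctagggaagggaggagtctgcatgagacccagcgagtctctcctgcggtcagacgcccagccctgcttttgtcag
Tcl1 (chr12:105222688-105222987, minus strand): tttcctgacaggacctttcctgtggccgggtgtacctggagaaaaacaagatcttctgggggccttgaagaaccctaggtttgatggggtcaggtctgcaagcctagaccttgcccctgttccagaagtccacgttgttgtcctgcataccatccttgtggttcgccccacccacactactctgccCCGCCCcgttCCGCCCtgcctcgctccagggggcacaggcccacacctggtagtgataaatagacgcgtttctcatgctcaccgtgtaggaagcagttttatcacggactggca
These windows hold 11 (Piwil4), 20 (Nxf2), 10 (Tdrd9), 6 (Dnmt3l), 14 (L1td1) and 11 (Tcl1) CpG dinucleotides, against a median of 7 over the 32851 promoters of the table. The E-box occurs in 7.15% of all promoters and was found 5 times in Nxf2 and 2 times in Tdrd9. The GC box occurs in 35.7% and was found 1 time in Dnmt3l and 2 times in Tcl1. Piwil4, Nxf2 and Dnmt3l have 2, 2 and 3 listed starts, of which only the 5′-most is shown. Which start is used in these testes was not tested.

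Piwil4, the nuclear PIWI protein MIWI2, had signals of 7.00, 9.22 and 8.05 at 16 dpc and 3.61, 4.52 and 5.02 at 14 dpc. It rose by 3.71 ± 0.37 (SE; adjusted p = 2.66e-06), and since its 14 dpc signals lay under the low-signal limit the rise is given as at least 5.23-fold, or 7.62-fold without array 1. The other Piwil4 probe set changed by 1.04 without array 1, so the size of the rise depends on the probe set. Dnmt3l, the catalytically inactive cofactor of the de novo methyltransferases, had 7.06, 8.36 and 7.10 at 16 dpc and 4.54, 4.44 and 4.47 at 14 dpc, at least 3.48-fold higher (adjusted p = 4.52e-07). Tdrd9, a Tudor-domain helicase of the piRNA pathway, had 8.61, 10.00 and 9.37 at 16 dpc and 5.68, 6.54 and 6.12 at 14 dpc and rose by 3.21 ± 0.35 (adjusted p = 6.32e-06). The X-linked Nxf2, an RNA export factor, had 8.67, 10.15 and 9.05 at 16 dpc and 5.31, 6.59 and 6.16 at 14 dpc and rose by 3.27 ± 0.32 (adjusted p = 1.51e-06). In all 4 genes, as in every gene called with all arrays, the 16 and 14 dpc groups did not overlap, and array 2 was the highest. Of all 18194 genes tested, 3799 had groups that did not overlap, so separation alone does not set a gene apart. Without array 1 the changes were 4.25 (Piwil4), 3.25 (Dnmt3l), 3.57 (Tdrd9) and 3.58 (Nxf2), all called.

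Other genes rose less. Gtsf1, a zinc-finger partner of PIWI proteins, had 7.86, 10.21 and 8.91 at 16 dpc and 5.21, 6.90 and 7.13 at 14 dpc and rose by 2.58 ± 0.45 (adjusted p = 0.00312, and 2.7e-04 without array 1). Sohlh1, a helix-loop-helix factor of spermatogonia, had 6.78, 7.60 and 6.37 at 16 dpc and 4.73, 5.14 and 4.79 at 14 dpc, at least 2.32-fold higher (adjusted p = 8e-05, and 2.15e-04 without array 1). In both genes the groups do not overlap. Tex101, a surface protein of male germ cells, had 6.15, 8.20 and 5.60 at 16 dpc and 4.49, 4.96 and 4.68 at 14 dpc. It was 1.97-fold higher with signals under the limit set to it (adjusted p = 0.0335, and 0.0285 without array 1). Rrad, a small GTPase, had 6.86, 8.23 and 7.16 at 16 dpc and 4.80, 5.38 and 5.18 at 14 dpc, at least 3.27-fold higher (adjusted p = 9.23e-05, and 4e-05 without array 1). Adad1, a testis RNA-binding protein, was 1.22-fold higher with signals under the limit set to it (adjusted p = 4.44e-04). Gm364 was at least 1.97-fold higher (adjusted p = 3.34e-04). Tktl1, related to transketolase, was at least 3.17-fold higher (adjusted p = 5.37e-04). Adad1, Gm364 and Tktl1 were also called without array 1 (adjusted p = 0.00176, 4.81e-04 and 1.81e-04). Stfa2l1, a gene of the stefin A family, was at least 1.61-fold higher (adjusted p = 0.0252) and lost its call without array 1 (adjusted p = 0.0878) and without 4 of the other arrays in turn, and it changed by 1.78 in Wv/Wv testes. The 3 Tktl1 probe sets ranged from 0.14 to 3.06 without array 1. Mael and Morc1 were called without array 1 and not with it. Mael, a component of germ granules, had 8.41, 11.60 and 10.22 at 16 dpc and 8.68, 9.68 and 9.41 at 14 dpc, with adjusted p-values of 0.356 with all arrays and 0.0196 without array 1. Morc1, a repressor of transposons, had 6.57, 10.15 and 8.62 at 16 dpc and 5.42, 6.79 and 6.71 at 14 dpc, with adjusted p-values of 0.125 and 0.00309. Tdrd12, a Tudor-domain protein of the pathway, had 4.64, 5.77 and 4.82 at 16 dpc and 6.45, 7.35 and 7.21 at 14 dpc and fell by 1.93 (adjusted p = 0.00237, and 0.016 without array 1). Tdrd1, Tdrd5 and Asz1, which act in the same pathway, were not called, with changes of 0.21, -0.26 and -0.19.

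The germ cell markers Ddx4 and Dazl were not called with or without array 1. Ddx4, a helicase of all germ cells, had 8.20, 10.40 and 9.35 at 16 dpc and 10.29, 10.73 and 10.77 at 14 dpc (change -1.27, adjusted p = 0.349). The RNA-binding protein Dazl changed by -2.26 (adjusted p = 0.0931, and 0.014 with the 5 arrays alone). Genes of meiosis, which male germ cells do not enter before birth, also fell in part. Of 24 measured genes, 5 fell and 0 rose (4 and 0 without array 1). Ugt8a, a galactosyltransferase of glycolipid synthesis, was 1 of the 5, and Syce2, a synaptonemal complex protein, lost its call without array 1 (adjusted p = 0.213). Smc1b, the meiotic cohesin, had 6.00, 7.10 and 5.87 at 16 dpc and 7.93, 8.26 and 8.30 at 14 dpc and fell by 1.84 (adjusted p = 0.00115, and 0.00742 without array 1). The groups do not overlap, and the highest 16 dpc array was array 2. Tex11, which acts in chromosome synapsis, was at least 1.63-fold lower (adjusted p = 0.00142, and 0.00528 without array 1). Mei4, needed for recombination breaks, was under the low-signal limit on 5 of the 6 arrays (adjusted p = 0.0142, 0.0472 without 16 dpc array 1 and 0.124 without 14 dpc array 3). Stra8, which starts meiosis, had 6.73, 6.29 and 5.41 at 16 dpc and 5.54, 5.84 and 5.86 at 14 dpc and was not called.

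Cell division transcripts mostly changed downwards in the whole testis, but none was called over all groups. Of 39 measured mitotic genes 0 were called with or without array 1 in limma, although 17 with all arrays and 1 without array 1 had an unadjusted p below 0.05. Over all genes tested such p-values made up 15.3% with all arrays and 5.93% without array 1. The median change of the list was -0.81 with all arrays and -0.16 without array 1. Of the 39 changes, 1 was above 0 with all arrays and 5 without array 1. Over all genes tested, 43.1% and 48.7% were above 0. Mki67, the proliferation antigen, had 9.61, 12.11 and 12.13 at 16 dpc and 12.25, 12.45 and 12.14 at 14 dpc, so that array 1 alone was low. With the 5 arrays alone 3 fell, namely Ccne1, which drives entry into S phase, Mcm2, which licenses replication, and Rrm2, which makes deoxynucleotides (adjusted p = 0.017, 0.0292 and 0.0451). Among 16 arrest genes the CDK inhibitor Cdkn2c rose, with 8.54, 8.84 and 9.02 at 16 dpc and 7.82, 7.71 and 7.49 at 14 dpc (1.13 ± 0.25, adjusted p = 0.0252, and 0.021 without array 1). The call was lost without any one of the other 5 arrays, where the adjusted p reached 0.165 and the change stayed between 1.02 and 1.26. It changed by 1.31 in Wv/Wv testes too. The inhibitor Cdkn1b had 9.37, 8.25 and 8.49 at 16 dpc and 7.80, 7.66 and 7.86 at 14 dpc and was called with the 5 arrays alone (adjusted p = 0.0343), as was a fall of Cdkn1a (adjusted p = 0.00919).

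Steroid synthesis was already high at 14 dpc. Of 10 measured steroidogenic genes 0 were called with all arrays in limma (1 at an unadjusted p below 0.05) and 1 rose without array 1, and the median change was -0.03 with all arrays and 0.46 without array 1, where 10 of 10 were above 0, as were 48.7% of all genes. Cyp17a1 had 12.72, 13.89 and 13.95 at 16 dpc and 13.54, 13.27 and 13.44 at 14 dpc, whereas the single wild-type testis at 12 dpc had 6.01. Cyp11a1, which makes the first cut in cholesterol, had 11.19, 12.80 and 12.91 at 16 dpc and 12.47, 12.16 and 12.16 at 14 dpc (change 0.04, and 0.59 without array 1). Hsd3b1 had 11.01, 12.92 and 12.86 at 16 dpc and 12.41, 12.38 and 12.35 at 14 dpc, and the cholesterol carrier Star had 9.60, 11.33 and 11.14 at 16 dpc and 10.95, 10.62 and 10.65 at 14 dpc. In each of these 4 genes array 1 lay below all 14 dpc arrays and arrays 2 and 3 lay above them. With the 5 arrays alone Cyp11a1 and Hsd3b1 rose (adjusted p = 0.0444 and 0.0309) and Star did not pass (adjusted p = 0.0899). The 3 Cyp11a1 probe sets changed by -0.34 to 0.59 without array 1.

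The gene of the steroid list that moved most was Hsd17b1, which reduces 17-keto steroids and in the mouse fetal testis is known from Sertoli cells. It had 8.80, 9.56 and 10.04 at 16 dpc and 8.14, 8.02 and 7.79 at 14 dpc, with no overlap. Its change was 1.48 ± 0.39 with all arrays (adjusted p = 0.0876) and it rose by 1.81 without array 1 (adjusted p = 0.0318), and Wv/Wv testes changed by 1.51. Hsd17b3, which makes testosterone from androstenedione, had 8.14, 6.84 and 6.83 at 16 dpc and 6.32, 6.42 and 6.96 at 14 dpc and was not called. Of 18 genes of cholesterol synthesis and uptake 0 were called with or without array 1 in limma, with 0 and 1 at an unadjusted p below 0.05, and 18 of 18 changes were above 0 without array 1 (median 0.38). With the 5 arrays alone Fdps, which makes farnesyl diphosphate, rose (adjusted p = 0.0289). Of 11 other Leydig markers 1 rose with and without array 1, the matrix gene Thbs2, and of 7 adult Leydig markers 0 were called in limma with or without array 1, with 1 at an unadjusted p below 0.05 each time. The transcription factor Nr5a1, which drives steroidogenic genes, had 9.77, 10.79 and 10.80 at 16 dpc and 10.87, 10.62 and 10.59 at 14 dpc. Its binding motif AAGGTCA, on either strand, was found in the promoter windows of 0 of 9 steroid genes and 1 of 10 other Leydig genes, and in 4.72% of all promoters.

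**Figure D3:**
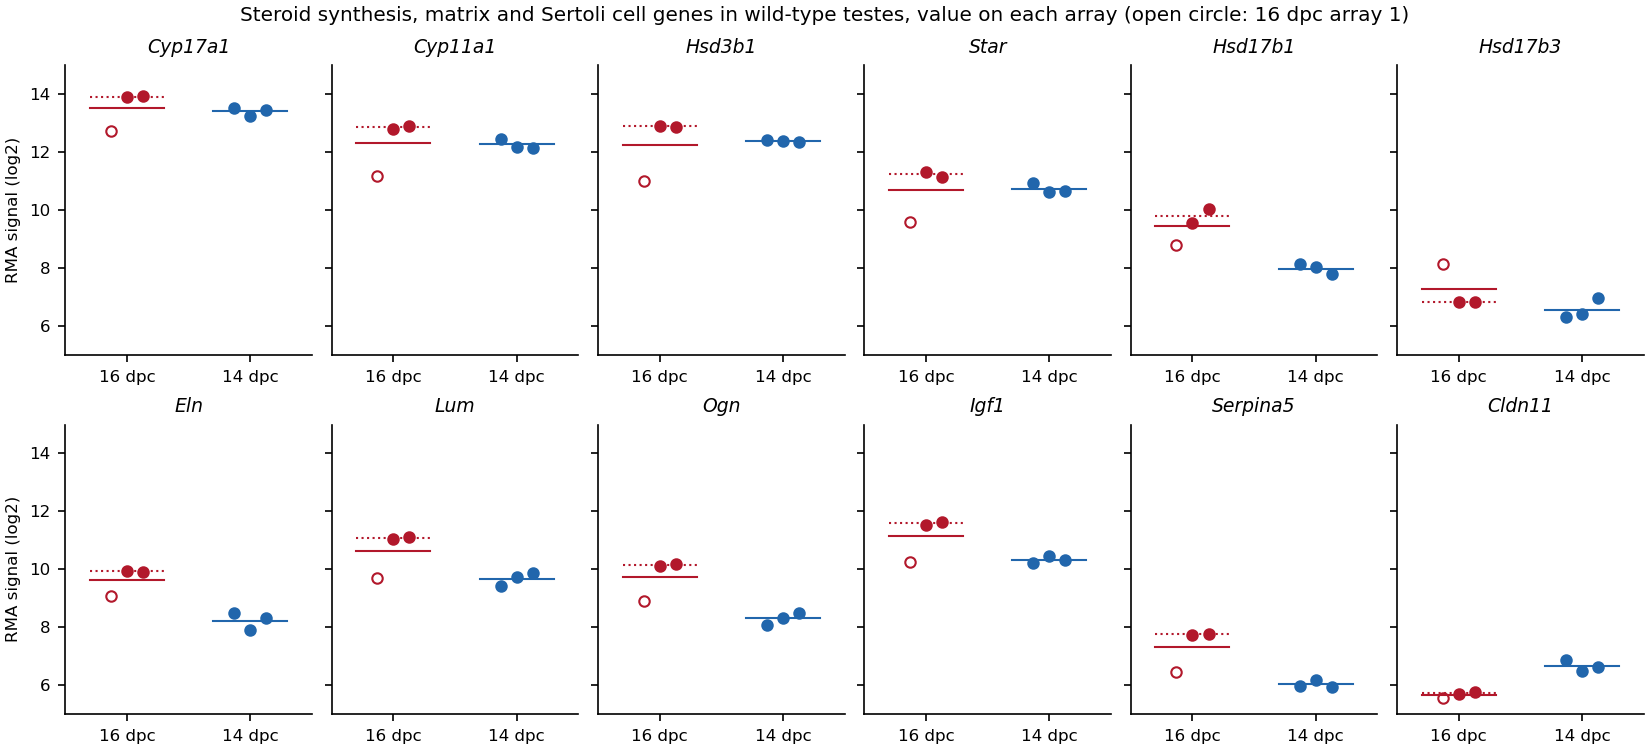
Log2 signal of somatic genes on each wild-type testis array, with the 3 arrays at 16 dpc left of the 3 at 14 dpc with solid lines at the group means and dotted lines at the 16 dpc mean without array 1 (open circle). Array 1 at 16 dpc lies below the other 16 dpc arrays for Cyp17a1, Cyp11a1, Hsd3b1 and Star, while Hsd17b1, Eln and Serpina5 are higher at 16 dpc on every array and Cldn11 is lower.

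Sertoli identity genes were not called. Of 14 Sertoli regulators 0 were called with or without array 1 in limma, with 5 and 2 at an unadjusted p below 0.05. Rhox5, Etv5 and Sox10 fell with the 5 arrays alone (adjusted p = 0.0234, 0.0227 and 0.0282). At 14 dpc Rhox5 had means of 9.28 in wild-type testes, 6.66 in Wv/Wv testes and 11.20 in wild-type ovaries. Which cells its fall came from was not tested. Sox9, the switch of Sertoli fate, had 7.91, 7.20 and 7.49 at 16 dpc and 7.73, 7.52 and 8.11 at 14 dpc, and Dhh, the hedgehog ligand of Sertoli cells, had 9.46, 10.19 and 10.02 at 16 dpc and 10.47, 10.45 and 10.27 at 14 dpc. Amh, the hormone that removes the female ducts, had 9.81, 7.50 and 7.68 at 16 dpc and 8.19, 7.39 and 8.12 at 14 dpc, so that the array with narrow signals was the high one. Of 25 Sertoli products 1 rose and 1 fell with all arrays, and 2 rose and 0 fell without array 1. Serpina5, a serine protease inhibitor, had 6.45, 7.75 and 7.78 at 16 dpc and 5.98, 6.19 and 5.95 at 14 dpc and rose by 1.29 ± 0.26 (adjusted p = 0.0135, and 3.72e-05 without array 1). The call was lost without 4 of the other 5 arrays in turn, where the adjusted p reached 0.0873. Cldn11, the tight junction protein of the later blood-testis barrier, had 5.56, 5.69 and 5.78 at 16 dpc and 6.88, 6.49 and 6.63 at 14 dpc and fell by 0.99 (adjusted p = 0.0252, and 0.0802 without array 1). It also lost its call without each 14 dpc array.

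Few genes of the extracellular matrix were called unless the 5 arrays were fitted alone. Of 20 measured matrix and stroma genes 1 rose with all arrays, 2 without array 1 and 13 with the 5 arrays alone, and 19 of 20 changes were above 0 without array 1 (median 0.78, against 0.28 with all arrays). Elastin (Eln) had 9.08, 9.94 and 9.92 at 16 dpc and 8.49, 7.90 and 8.31 at 14 dpc and rose by 1.42 (adjusted p = 0.0252, and 0.00767 without array 1). The call was lost without any one of the other 5 arrays, where the adjusted p reached 0.194. The other Eln probe set changed by 0.46 without array 1, against 1.70 for the one used, so the size of the rise depends on the probe set. Thrombospondin 2 (Thbs2) had 7.29, 7.51 and 7.76 at 16 dpc and 5.91, 5.99 and 6.33 at 14 dpc and rose by 1.44 (adjusted p = 0.00312, and 0.00344 without array 1). Dermatopontin (Dpt), which binds decorin in collagen fibres, had 7.42, 6.64 and 6.70 at 16 dpc and 4.52, 4.66 and 4.57 at 14 dpc at least 2.32-fold higher (adjusted p = 6.18e-04, and 0.00517 without array 1). The groups of Thbs2 and Dpt do not overlap. The proteoglycan genes Ogn, Lum and Dcn (adjusted p = 5.95e-04, 0.00228 and 0.0124) and the collagen genes Col5a1, Col5a2, Col6a1 and Col6a2 were called with the 5 arrays alone. Igf1, a growth factor of the interstitium, had 10.25, 11.54 and 11.63 at 16 dpc and 10.22, 10.46 and 10.32 at 14 dpc and rose by 1.25 without array 1 (adjusted p = 0.00103), against 0.81 with all arrays (adjusted p = 0.197). Hmga2, a chromatin protein of fetal growth, had 8.81, 9.67 and 9.62 at 16 dpc and 11.45, 11.13 and 11.45 at 14 dpc and fell by 1.98 (adjusted p = 8e-05, and 4.25e-04 without array 1). Of 14 smooth muscle genes 1 rose, Cnn1 with all arrays (adjusted p = 0.0419, and 0.153 without array 1, with the call also lost without 4 others in turn) and Actg2 without array 1 (adjusted p = 0.0182), and Myh11 and Tagln were called with the 5 arrays alone. Among 17 genes of activin and TGF-beta signalling, 0 were called with all arrays in limma (3 at an unadjusted p below 0.05) and 1 without array 1, the follistatin-like Fstl3 (adjusted p = 0.0338). Among 12 pregranulosa genes 1 fell, the G protein subunit Gng13 (adjusted p = 0.0106, and 3.83e-04 without array 1), and its other probe set changed by -0.19 without array 1. It lost its call without 16 dpc array 3 or 14 dpc array 3 (adjusted p up to 0.0964). Among 9 neuron and glia genes Fabp7 fell (adjusted p = 0.0165, and 0.101 without array 1), a call also lost without each 14 dpc array.

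Blood genes moved with age as well. Of 11 erythroid genes 2 fell with all arrays and 1 without array 1, and the embryonic globin Hbb-bh1 had 5.16, 6.67 and 5.20 at 16 dpc and 8.22, 8.74 and 7.94 at 14 dpc and fell by 2.63 (adjusted p = 0.00312, and 0.021 without array 1). Hbb-y had 6.83, 12.60 and 10.85 at 16 dpc and 14.11, 14.11 and 14.05 at 14 dpc (adjusted p = 0.0476, and 0.278 without array 1), and Hba-x fell by 2.89 (adjusted p = 0.0184, and 0.11 without array 1). Both calls were also lost without each 14 dpc array. The summed erythroid signal was 1861, 10039 and 3357 at 16 dpc and 21579, 21494 and 18935 at 14 dpc. Of 18 macrophage and leukocyte genes 1 rose, Lyz2 (lysozyme), with 8.29, 9.22 and 9.03 at 16 dpc and 6.96, 7.36 and 6.73 at 14 dpc (1.83, adjusted p = 0.00791, and 0.069 without 14 dpc array 3), and the summed signal of the list was 3034 to 4116 at 16 dpc and 2345 to 3101 at 14 dpc. Of 12 mesonephros genes 1 fell, Lhx1, and the summed signal, which includes Lhx1, was 1201 to 1594 at 16 dpc and 1920 to 2170 at 14 dpc. In Wv/Wv testes Lhx1 had 4.80 and 5.26 at 14 dpc and changed by -0.15. The part of blood, macrophage and mesonephros cells in the other changes was not tested. In the lists of interstitium and hedgehog signalling, basement membrane, endothelium, mast cells, adrenal cortex, retinoid signalling, androgen and Insl3 targets, imprinted growth genes, stress genes and housekeeping genes, 0 genes were called in limma with or without array 1. In these lists at most 3 genes had an unadjusted p below 0.05 with all arrays and at most 2 without array 1.

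The same ages were compared in Wv/Wv testes, which hold few germ cells. Ddx4 had 3.36, 5.17 and 5.02 in Wv/Wv testes at 16 dpc and 5.60 and 3.67 at 14 dpc, under every wild-type testis array. The age change differed between wild-type and Wv/Wv testes in 15 genes (0.0824% of those tested), 5 with a higher and 10 with a lower change in wild type, and in 25 without array 1, 14 of them shared. The count was 25 without 16 dpc array 3, and 6 and 8 without Wv/Wv 14 dpc arrays 1 and 2. Under housekeeping centring 6 genes differed, 6 higher and 0 lower. All 15 were also called in wild-type testes. Piwil4 changed by 3.71 in wild-type and by -0.12 in Wv/Wv testes, a difference of 3.82 (adjusted p = 0.00352), and its Wv/Wv signals were 2.69 to 3.18 at 16 dpc and 2.99 and 3.14 at 14 dpc. Differences of 3.36 for Nxf2, 3.19 for Dnmt3l and -3.31 for Pmaip1 were likewise called, and these 4 stayed called when any of the 11 arrays of the comparison was left out. Nodal and Nanog differed by -2.05 (adjusted p = 0.00646) and -1.99 (adjusted p = 0.00966). Piwil4, Nxf2, Dnmt3l, Pmaip1, Nodal and Nanog all had mean Wv/Wv signals under the low-signal limit at both ages. A change with age could hardly show there, so these differences largely restate the wild-type changes. Of the 100 genes that rose without array 1, 47 changed by less than 0.5 in Wv/Wv testes and 30 changed by at least 1 in the same direction, and of the 56 that fell the numbers were 44 and 7. Of all genes tested, 92.7% changed by less than 0.5 in Wv/Wv testes, 0.715% were higher by at least 1 and 0.22% lower by at least 1.

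Changes of 5 somatic genes named above that rose stood side by side in the genotypes as follows. Eln changed by 1.42 in wild-type and 1.60 in Wv/Wv testes, Thbs2 by 1.44 and 1.54, Serpina5 by 1.29 and 1.61, Lyz2 by 1.83 and 2.18, and Cnn1 by 1.15 and 0.44. Within Wv/Wv testes Thbs2, Serpina5 and Lyz2 were called (adjusted p = 0.0235, 0.0225 and 0.0217), and Eln was not (adjusted p = 0.0843). None of the 5 differences between genotypes was called. Genes of the somatic lists that fell were mixed. Cldn11 changed by -0.99 in wild-type and -1.22 in Wv/Wv testes, but Gng13 by -1.66 and 0.19, Lhx1 by -2.38 and -0.15, and Rhox5 by -1.76 and -0.04. With all arrays these differences were not called in limma, and that of Gng13 was called without array 1 (-2.28, adjusted p = 0.025). The list medians without array 1 were 0.78 in wild-type and 0.67 in Wv/Wv testes for matrix genes and 0.46 and 0.49 for steroid genes. For pluripotency genes they were -1.13 in wild-type and -0.13 in Wv/Wv testes. The genotype differences of Dppa5a (-3.63, adjusted p = 0.411) and Sox2 (-4.14, adjusted p = 0.41) were not called in limma. They were not called without array 1 either (adjusted p = 0.909 and 0.837).

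**Figure D4:**
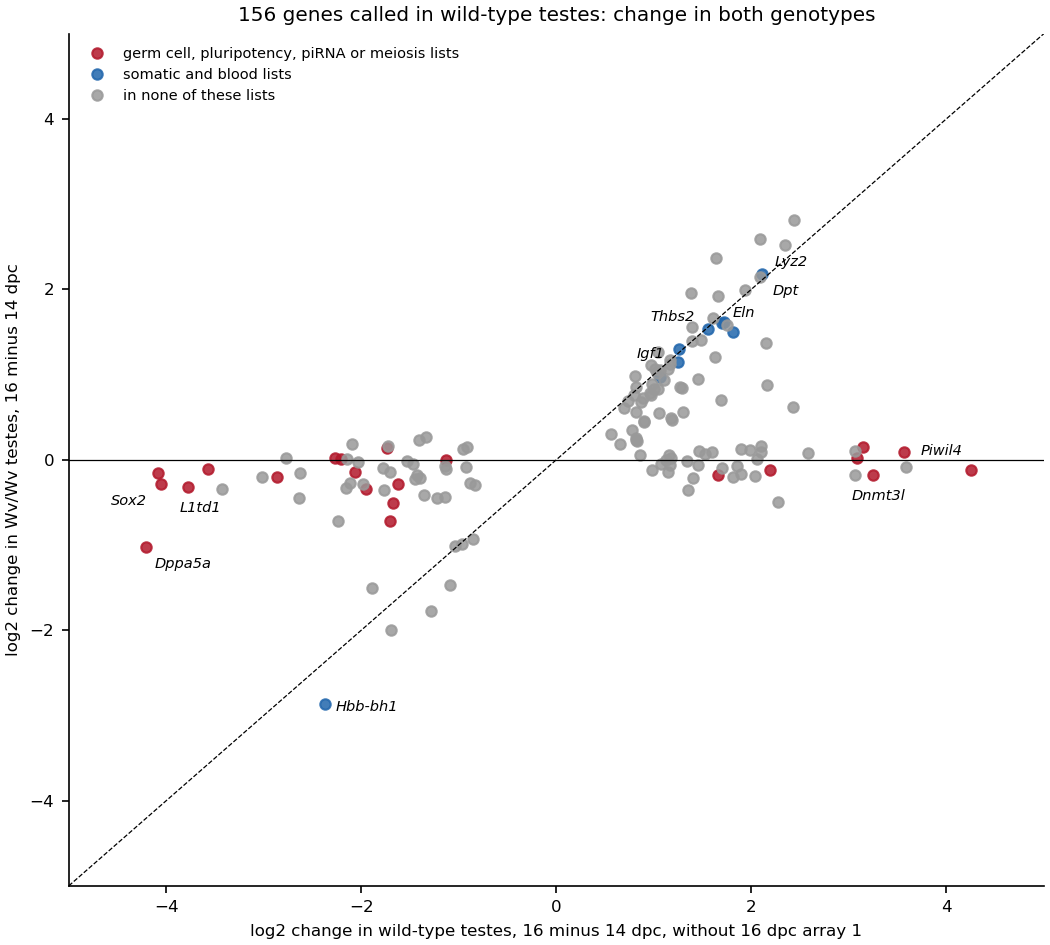
Log2 change, 16 minus 14 dpc, in wild-type testes without array 1 on the horizontal axis against the change in Wv/Wv testes on the vertical axis, for the 156 genes called in wild-type testes without array 1, with the diagonal of equal change dashed. Piwil4, with a change of 4.25 in wild type and -0.12 in Wv/Wv, lies on the zero line of the mutant, while Eln and Thbs2 lie near the diagonal.

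The change was also set against that in wild-type ovaries, whose germ cells enter meiosis at these ages. All ovary arrays at 16 dpc and 1 of 3 at 14 dpc had narrow signals, so age and signal width largely coincide there, and with width as a term the count below was 112. The age change differed between wild-type testis and wild-type ovary in 23 genes (0.126%), 9 with a higher and 14 with a lower change in the testis, and in 57 without array 1, 22 of them shared. It was 50 without ovary array 2 at 16 dpc, which was nearer the 14 dpc ovaries in Sox2, and 14 and 13 without ovary arrays 1 and 3 at 16 dpc. It was 15 without ovary array 3 at 14 dpc, and 15 and 12 without testis arrays 2 and 3 at 14 dpc. Under housekeeping centring 5 genes differed, 4 higher and 1 lower. In all, 8 genes were called in this comparison and in the one with Wv/Wv testes, which share the wild-type testis arrays. Tdrd9 and Piwil4 had the largest positive differences, 4.43 and 4.55, with ovary signals of Piwil4 of 3.01, 3.26 and 3.23 at 16 dpc and 3.44, 4.57 and 4.03 at 14 dpc. Phlda2, an imprinted growth gene, differed by 3.50 with a change of -2.73 in ovaries, and the difference was 4.42 without ovary array 2. The meiotic genes Smc1b and Sycp1 differed by -2.52 and -2.45, Smc1b with ovary signals of 11.82, 11.45 and 11.58 at 16 dpc and 11.22, 11.41 and 10.18 at 14 dpc. Sox2 had 3.56 on ovary arrays 1 and 3 at 16 dpc and 7.95, 9.53 and 9.10 at 14 dpc, and Dppa5a had 7.23 and 7.36 on those arrays and 11.20, 11.71 and 11.47 at 14 dpc. Of the 12 genes named from this comparison, 12 stayed called without ovary array 2.

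The levels at 12 dpc, from 1 wild-type testis array and so with no spread, placed the 14 dpc values in a series. Pmaip1 had 4.80 at 12 dpc, 8.84 on average at 14 dpc and 5.18 at 16 dpc, and Nodal had 6.69, 7.76 and 5.73. Otx2 had 2.99, 6.18 and 3.56. These 3 genes were highest at 14 dpc. L1td1 and Sox2 were already high at 12 dpc, at 8.12 and 7.83, and Piwil4 was low, at 2.80. Cyp17a1 and Hsd17b1 were at 6.01 and 5.98 at 12 dpc.

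**Figure D5:**
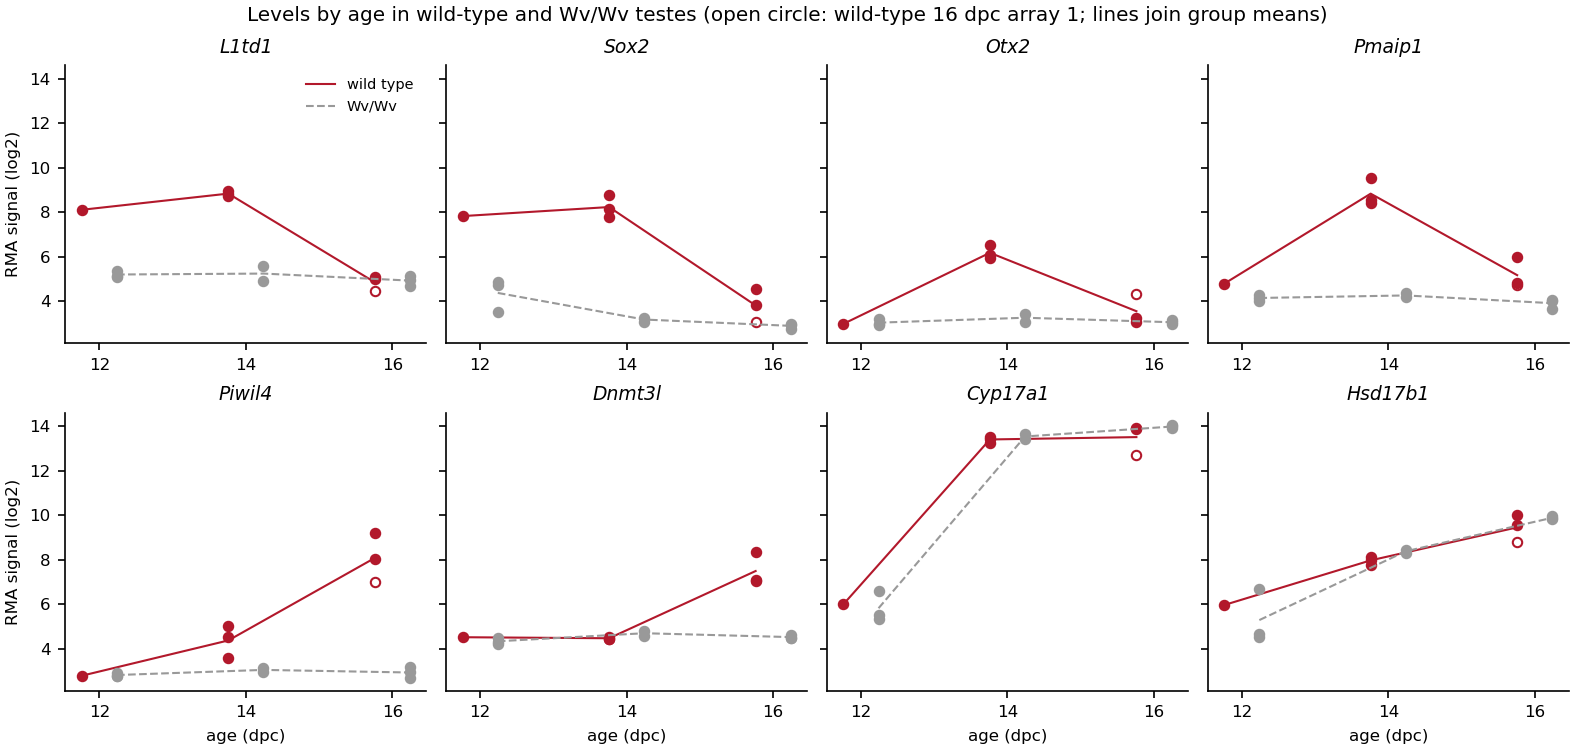
Log2 signal against age (12, 14 and 16 dpc) in wild-type testes (red, 1, 3 and 3 arrays) and Wv/Wv testes (grey, 3, 2 and 3 arrays, drawn slightly to the right), with points for arrays, an open circle for wild-type array 1 at 16 dpc and lines through the group means. In wild type Pmaip1 and Otx2 peak at 14 dpc, Cyp17a1 is high from 14 dpc and Piwil4 is highest at 16 dpc.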

How the data were processed

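RNA of whole fetal mouse gonads was labelled from 50 ng of total RNA with a 3′ in vitro transcription kit and hybridised to Affymetrix arrays, per the labels' protocols. The authors deposited log2 signals of 45101 probe sets on 31 arrays, made with RMA per the submitters' processing notes. RMA equalises the arrays, so an overall shift in RNA content is not visible. Arrays have no read depth, and their number limits the precision. Of the probe sets, 34958 have 1 gene symbol in the platform annotation. The probe set with the highest mean was used for each of 18194 genes. The test was limma 3.58.1 (R 4.3.3), with 1 mean for each of 12 groups over all 31 arrays (19 residual degrees of freedom) and Benjamini-Hochberg adjustment. The genes named were the 10 largest rises and falls among called genes, the 5 largest in the fit without array 1, the 5 largest differences each way in both comparisons of changes, leading members of each list and fixed markers, and others were named after their values were seen. Members and lists were chosen with earlier results of these data known. Low signal means under the 40th percentile (5.705). Tables and figures used Python 3.11.15 with pandas 2.3.3 and matplotlib 3.10.9, and the scripts were tested on simulated data.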

Additional observations from a re-analysis of the deposited data

Results flagged for a closer look

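These are the named genes whose 16 minus 14 dpc change differed by a limma interaction test, first between wild-type and Wv/Wv testes. The differences of log2 changes, wild type minus Wv/Wv, were 3.82 for Piwil4, 3.36 for Nxf2, 3.19 for Dnmt3l, 3.12 for Tdrd9 and 2.75 for Adad1. They were -3.83 for Prdm14, -3.67 for L1td1, -3.31 for Pmaip1, -3.19 for Tcl1, -2.71 for Olig1 and -2.42 for Otx2. All these genes had mean Wv/Wv signals under the low-signal limit at both ages. Their differences therefore largely restate the wild-type changes. Piwil4, Nxf2, Dnmt3l and Pmaip1 stayed called with any of the 11 arrays left out. Prdm14 and Tcl1 lost their call without either of the 2 Wv/Wv arrays at 14 dpc (adjusted p up to 0.0618 and 0.1), L1td1 without Wv/Wv 14 dpc array 2 (0.0539), and Otx2 and Tdrd9 without Wv/Wv 14 dpc array 1 (0.0618 and 0.113). Olig1 lost it without 9 of the 11 arrays in turn (adjusted p up to 0.438) and Adad1 without 6 (up to 0.433).

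Between wild-type testis and wild-type ovary the differences, testis minus ovary, were 4.55 for Piwil4, 4.43 for Tdrd9, 3.50 for Phlda2, 2.96 for Nxf2, 2.72 for Dnmt3l and 2.30 for Rrad. They were -3.63 for Pmaip1, -2.74 for Otx2, -2.60 for Nts, -2.52 for Smc1b, -2.45 for Sycp1 and -2.25 for Tex11. The neuropeptide gene Nts changed by -1.52 in testis and 1.08 in ovary. Tex11 lost its call without 7 of the 12 arrays in turn (adjusted p up to 0.187), Rrad without 5 (up to 0.0876), Phlda2 without ovary arrays 1 or 3 at 16 dpc or testis array 3 at 14 dpc (up to 0.0625) and Sycp1 without ovary array 3 at 16 dpc or testis array 3 at 14 dpc (up to 0.0516). Both comparisons use the same wild-type testis arrays.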

How the results depend on the processing

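The count of called genes depended most on the arrays and on how their spread was modelled. Against 151 genes called in wild-type testes in the main fit, the count was 561 with the width of the signals as a term, 475 with that term and array 1 left out, 1546 with array weights, 324 after cyclic loess, 314 after quantile normalisation and 2 with only the 2 groups fitted. It was 849 with only these groups and array 1 left out, 73 with housekeeping centring without array 1, and 1054 with only arrays of wide signals, settings chosen after seeing the data. Leaving out 1 array at a time gave 69 to 267. The 15 genes that differed from Wv/Wv testes became 33 and 49 with the width term with and without array 1, 6 with housekeeping centring (8 without array 1), 3 with only the groups compared, and 6 to 25 with 1 array left out. The 23 that differed from ovaries became 112 and 114 with the width term, 8673 with array weights, 46 after cyclic loess, 54 after quantile normalisation, 5 with housekeeping centring (12 without array 1), 44 with only the groups compared and array 1 left out, and 12 to 57 with 1 array left out. With only the groups compared limma called 0 of them, with 511 genes at an unadjusted p below 0.05. The comparison with ovaries could not be fitted on arrays of wide signals alone. The array weight of array 1 was 0.00413. Star changed by 0.484 with array weights (adjusted p = 0.0345) and Hsd3b1 by 0.510 with only the groups compared without array 1, both below 0 with all arrays. The cause was not tested. With the replicate number as a block the counts were 140, 16 and 17. Same-numbered arrays did not deviate together (r = -0.165, -0.012 and -0.066), so the numbers were taken to name the arrays only. Differently numbered arrays had r of -0.12 to 0.20. Because array 1 dominated the 16 dpc deviations, this check could not exclude a shared litter or batch. The low-signal filter, the mean of probe sets, every probe set, a trended robust fit and a minimum change of 1 kept the counts within 1.5 times.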

Other observations

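Some genes called in wild-type testes fall outside the lists, and those given here were picked after their values were seen, with no count of comparable genes that did not move. Ltf (lactoferrin) rose by 2.04 at 16 dpc, Ccl17, a chemokine, by 1.82 and Plbd1 by 1.07, with changes of 0.62, 1.21 and 1.17 in Wv/Wv testes. Stfa3, Clec4d and Fpr2 were under the low-signal limit at 14 dpc. With signals under the limit set to it they were 1.25-fold, 1.13-fold and 1.17-fold higher at 16 dpc. In the macrophage and leukocyte list 1 of 18 genes was called. Brdt, a bromodomain protein of the testis, rose by 1.74 (adjusted p = 0.00237, and 3.46e-04 without array 1). Ldhc, the testis lactate dehydrogenase, was 1.17-fold higher with signals under the limit set to it (adjusted p = 0.0335, and 0.00542 without array 1). By the same rule Enkur, Drc1 and Dpep3 were 1.44-fold, 1.62-fold and 1.06-fold higher. The mean 16 dpc signals of Ldhc (5.57) and Dpep3 (5.26) lay under the limit.

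The partner factors Sohlh1 and Sohlh2 moved in opposite directions. Sohlh2 had 5.98, 5.73 and 5.50 at 16 dpc and 8.19, 8.14 and 8.43 at 14 dpc and fell by 2.52 (adjusted p = 1.65e-04, and 4.06e-04 without array 1), while Sohlh1 was at least 2.32-fold higher at 16 dpc.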
